A study of Homo sapiens with 12 samples.

Results

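The genes described here are 9 members of the titin, myomesin and thick filament group: TTN, MYBPC3, MYOM1, MYOM2, MYOM3, SMYD1, UNC45B, TRIM63 and TRIM55. They were chosen by gene symbol and not by a rule on their values, with earlier results of these data known. They are 9 of the 61806 genes in the table. Each symbol was found once in the table, and all 9 genes passed the filter on low counts. RNA-seq was performed on cells of H1, a human embryonic stem cell line labelled wild type, after mesendoderm differentiation, at Day 12 or Day 16, and each of the 6 groups of treatment and day had 2 libraries. NP-IWP2 cells were not passaged and were differentiated with IWP2, an inhibitor of WNT signaling. Passaging took place on Day 2 in the other groups, of which P-DF cells then differentiated spontaneously in DF medium and P-IWP2 cells were given IWP2. The comparisons addressed whether intermediate passaging changed the expression of these genes, with and without IWP2. Passaging and the lack of IWP2 both set P-DF apart from NP-IWP2, and their effects cannot be told apart in that comparison. All groups came from 1 cell line, and the labels do not say whether the 2 libraries of a group were separate cultures, so the p-values measure the spread between these libraries, which may be technical.

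The sarcomere, the contractile unit of striated muscle, is built from thin filaments of actin and thick filaments of myosin. Titin (TTN) is a giant protein that runs from the Z-disc to the M-band and acts as a spring and a ruler of the thick filament, on which cardiac myosin binding protein C (MYBPC3) sits in regular stripes. The myomesins (MYOM1, MYOM2 and MYOM3) crosslink thick filaments and titin at the M-band. Newly made myosin is folded with the help of the chaperone UNC45B and the muscle methyltransferase SMYD1, and the muscle ring finger ubiquitin ligases TRIM63 (MuRF1) and TRIM55 (MuRF2) associate with titin near the M-band and take part in protein turnover.

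Because 7 of the 9 genes varied together over the libraries, as described below, the bases before the starts of the 9 genes were sought. The promoter sequences of RefSeq (GRCh38.p14) held 6 of the 9 genes, and the 250 bases before the start were searched. UNC45B and TRIM55, of the 7, were not among these 6, and MYOM3, which was, is not 1 of the 7. TTN, MYBPC3, MYOM1 and MYOM3 are shown because these 4 hold a MEF2 site or a CArG box. The sequences lie at chr2:178807424-178807673, chr11:47352703-47352952, chr18:3219969-3220218 and chr1:24112136-24112385, each on the minus strand and read 5′ to 3′. The starts of TTN and TRIM63 in RefSeq lie inside the spans given for these genes in the table. Capitals mark matches on either strand to the MEF2 site, the CArG box, AGATAA (a motif of the GATA factors), CATTCC (a motif of the TEAD factors) or TATAAA.
TTN: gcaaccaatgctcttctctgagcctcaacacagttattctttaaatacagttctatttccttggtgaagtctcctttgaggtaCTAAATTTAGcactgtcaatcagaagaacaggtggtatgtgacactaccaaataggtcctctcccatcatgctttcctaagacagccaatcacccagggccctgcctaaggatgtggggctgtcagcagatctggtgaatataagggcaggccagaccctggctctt
MYBPC3: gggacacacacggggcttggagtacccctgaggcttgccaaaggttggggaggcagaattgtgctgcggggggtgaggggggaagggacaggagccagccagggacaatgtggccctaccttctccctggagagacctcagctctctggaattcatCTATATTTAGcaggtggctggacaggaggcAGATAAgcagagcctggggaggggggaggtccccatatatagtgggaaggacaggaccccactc
MYOM1: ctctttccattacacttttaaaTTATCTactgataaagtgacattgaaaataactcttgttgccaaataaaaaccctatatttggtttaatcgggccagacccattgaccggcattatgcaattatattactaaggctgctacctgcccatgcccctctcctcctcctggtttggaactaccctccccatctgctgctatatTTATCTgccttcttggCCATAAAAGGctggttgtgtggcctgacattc
MYOM3: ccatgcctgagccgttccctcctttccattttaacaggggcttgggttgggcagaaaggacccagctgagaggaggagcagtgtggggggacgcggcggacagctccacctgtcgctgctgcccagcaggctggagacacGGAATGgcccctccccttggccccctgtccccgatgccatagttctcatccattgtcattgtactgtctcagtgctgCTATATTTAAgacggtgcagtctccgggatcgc

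A MEF2 site, the AT-rich motif of the MEF2 factors of muscle, was found in 3 of the 6 promoters (TTN, MYBPC3 and MYOM3), where 2.80% of the 35114 RefSeq promoters of the same length held one. The CArG box, the motif of the serum response factor, was found in 1 of 6 (MYOM1) against 1.16% of all promoters. AGATAA was found in 2 of 6 (MYBPC3 and MYOM1) against 9.17%, and CATTCC in 2 of 6 (MYOM3 and TRIM63) against 11.9%. TATAAA was also found in 2 of 6, in SMYD1 at 63 and in TRIM63 at 31 bases before the start, against 10.7%. All 6 held CANNTG, the E-box, which was counted but not capitalised, against 61.8% of all promoters. The MEF2 sites began 167 bases before the start in TTN, 94 in MYBPC3 and 33 in MYOM3. These matches are letters in a window, and MYOM3 was at the edge of detection in the same cells in which TTN and MYBPC3 were abundant.

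The genes lie on 6 chromosomes, and their positions are given as in the table, whose coordinates match the GRCh38 genome build. TTN (ENSG00000155657) spans chr2:178525989-178830802 on the minus strand with an exon length of 118976 bases. SMYD1 (ENSG00000115593) is on the plus strand of the same chromosome at chr2:88067825-88113384. MYBPC3 (ENSG00000134571) is at chr11:47331406-47352702 on the minus strand. MYOM1 (ENSG00000101605) is at chr18:3066807-3219968, MYOM3 (ENSG00000142661) at chr1:24056035-24112135 and TRIM63 (ENSG00000158022) at chr1:26051301-26068436, all on the minus strand. MYOM2 (ENSG00000036448) is at chr8:2045046-2165552, TRIM55 (ENSG00000147573) at chr8:66126896-66175485 and UNC45B (ENSG00000141161) at chr17:35147817-35189345, all on the plus strand. Reads were counted per gene over its exons, so isoforms of titin and of the myomesins were not separated here.

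The library totals ran from 14885589 to 19176239 counted reads (median 16452289). One library stood apart, that labelled P-IWP2 Day 12 replicate 5: the 2 P-IWP2 libraries of Day 12 differed by a chi-square of 120 per degree of freedom over genes, against 3.50 to 26.7 in the other 5 groups. In this library the summed FPKM of 11 cardiomyocyte genes was 3690, the lowest of all. That of 6 epicardial genes was 134, against 0.33 in its replicate 6. The epicardial genes summed to 28.7 and 48.3 FPKM in NP-IWP2 libraries on Day 12 and to 48.9 and 75.5 on Day 16. In the other passaged libraries they summed to 0.13 to 0.34. As a check of the label, the 11 cardiomyocyte genes summed to 4954 FPKM or more in the other 11 libraries, while 13 of 14 skeletal muscle markers stayed under 1 FPKM in every library and the 14 together summed to at most 3.02 FPKM. NP-IWP2 libraries of Day 16 held more RNA of some other cell types. The 8 fibroblast markers then summed to 1378 and 1404 FPKM against 28.4 to 44.03 in passaged cells. The 8 hepatic or endoderm markers summed to 615 and 756 against 14.1 to 20.1. On Day 12 the fibroblast markers summed to 801 and 813 FPKM in NP-IWP2, 34.9 and 45.75 in P-DF and 48.45 and 767 in P-IWP2 libraries. The summed FPKM of the other marker lists over the 12 libraries was 12.3 to 236 for endothelial, 145 to 900 for smooth muscle, 31.4 to 86.6 for cell cycle and 0.22 to 22.5 for pluripotent genes. In bulk RNA, fewer cells of a type and less RNA per cell cannot be told apart, which holds for every level below. Values without the P-IWP2 Day 12 replicate 5 library are given beside the results, and they leave replicate 6 alone in that group.

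Levels per exon length were compared as FPKM. MYBPC3 was the highest of the 9 genes in every group, with a mean of 236 ± 5.55 FPKM (SD, n = 2) in NP-IWP2 cells on Day 12 and 478 ± 51.3 in P-DF cells on Day 16. SMYD1 and MYOM1 came next, and their order depended on the group. In NP-IWP2 cells SMYD1 was at 112 ± 15.2 and MYOM1 at 95.4 ± 11.2 FPKM on Day 12, with overlapping libraries. UNC45B followed, at 76.9 ± 5.88 FPKM in NP-IWP2 cells on Day 12, then TRIM55 at 55.9 ± 4.67, TTN at 30.1 ± 3.46 and TRIM63 at 21.5 ± 1.96. MYOM2, at 1.97 ± 0.23 FPKM, and MYOM3, at 0.12 ± 0.01 FPKM, were far below the rest. Of the neighbours in this order on Day 12 in NP-IWP2 cells, only SMYD1 and MYOM1 overlapped. In P-DF cells on Day 16 no neighbours overlapped and TRIM63 (78.0 ± 1.53 FPKM) stood above TTN (66.7 ± 4.57). In P-IWP2 cells on Day 16, TTN and TRIM63 were at 68.0 ± 7.15 and 68.0 ± 17.6 FPKM and overlapped, as did UNC45B and TRIM55. In P-IWP2 cells on Day 12, the first 6 genes each overlapped the next in the order. By reads, TTN was the largest member, with 0.262 to 0.870% of all counted reads of a library, and its exon length was the greatest of the 9.

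**Figure D1:**
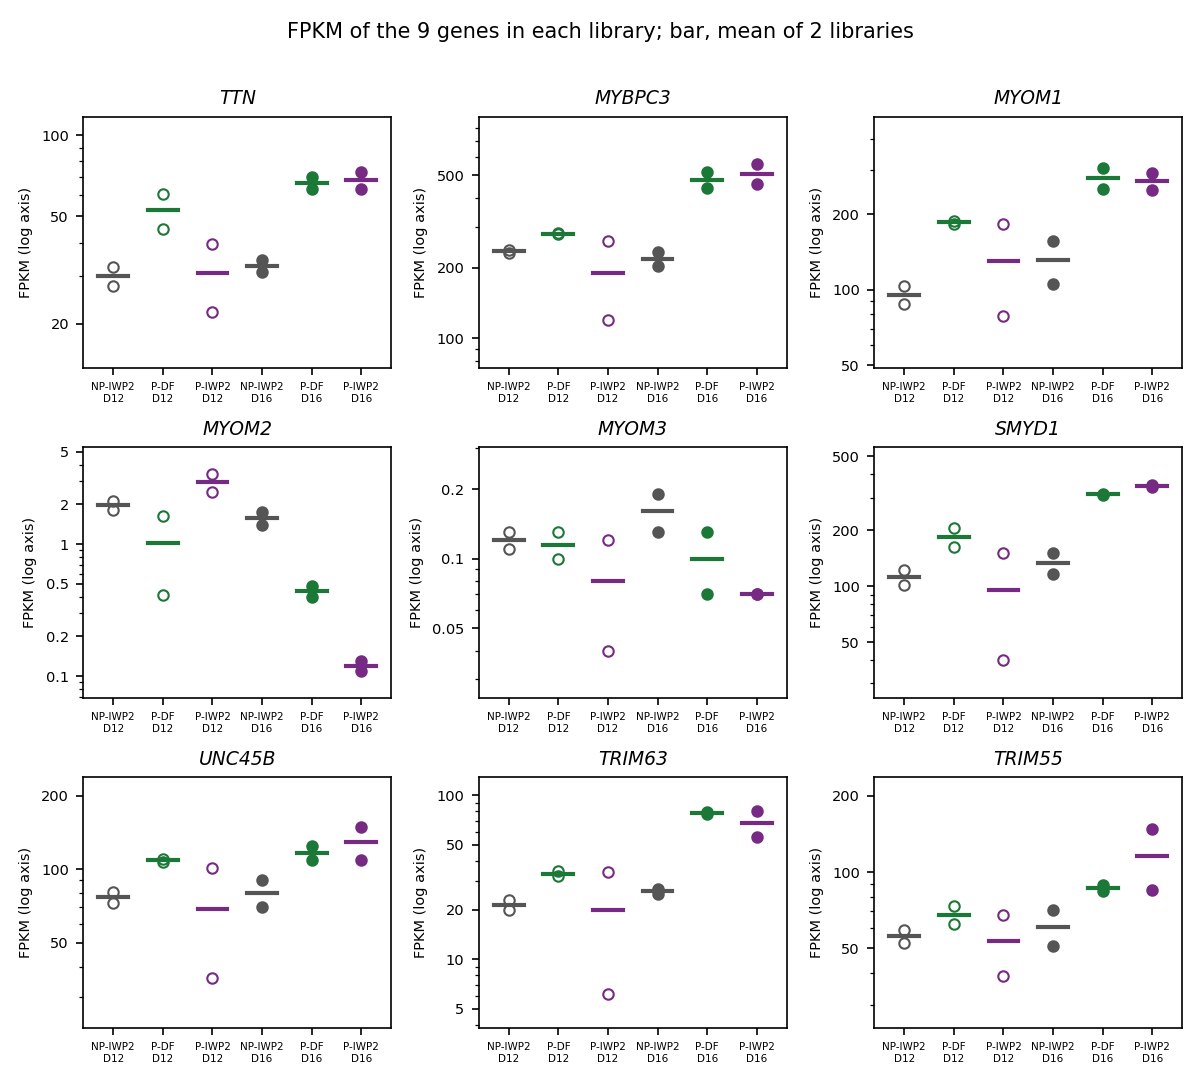
FPKM of the 9 genes in each of the 12 libraries on a log axis, 1 panel per gene, with open circles for Day 12, filled circles for Day 16 and a bar at the mean of the 2 libraries of a group. On Day 16 both passaged groups lie above NP-IWP2 for TTN, MYBPC3, MYOM1, SMYD1, UNC45B, TRIM63 and TRIM55 and below it for MYOM2, and the 2 P-IWP2 libraries of Day 12 lie far apart for most genes.

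Titin RNA was more abundant in passaged than in NP-IWP2 cells on Day 16. Fold changes here and below follow the TMM scaling of edgeR, which FPKM lack. The Day 16 rises over NP-IWP2 cells are therefore larger than the FPKM of the libraries give. TTN was at 31.1 and 34.4 FPKM in the NP-IWP2 libraries, at 69.9 and 63.5 with P-DF and at 73.1 and 63.0 with P-IWP2 on Day 16. All 4 passaged libraries were above both NP-IWP2 libraries. TTN rose 2.39-fold with P-DF (log2 fold change 1.26 ± 0.33 SE, edgeR adjusted p = 0.0332) and 2.51-fold with P-IWP2 (1.33 ± 0.33, edgeR adjusted p = 0.0257). On Day 12, TTN was at 32.5 and 27.6 FPKM in the NP-IWP2 libraries, at 45.1 and 60.7 with P-DF and at 22.03 (replicate 5) and 39.5 with P-IWP2. The P-DF libraries were above the NP-IWP2 libraries, and the P-IWP2 libraries lay on both sides of them. The Day 12 log2 fold change in P-DF cells, 0.90 ± 0.33, was not called (edgeR adjusted p = 0.157), nor was the difference in P-IWP2 cells. Without the P-IWP2 Day 12 replicate 5 library, the Day 16 log2 fold changes were 1.26 and 1.33 with edgeR adjusted p of 3.2e-05 and 2.03e-05, and the Day 12 rise in P-DF cells was called (0.89, edgeR adjusted p = 0.000793).

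The call of TTN in P-DF cells on Day 16 rested on small margins: the edgeR adjusted p was 0.0507 to 0.166 when any 1 library other than the 2 P-IWP2 libraries of Day 12 was left out. That in P-IWP2 cells was lost without either NP-IWP2 or either P-IWP2 library of Day 16 (0.0874 to 0.145). TTN-AS1, which lies on the opposite strand over 83.3% of the span of TTN, had 0.556 to 0.918% as many counts as TTN. Whether the counting used strand is not given in the sources used here, so reads of the 2 genes may be mixed. TTN-AS1 had log2 fold changes of 1.25 and 1.22 on Day 16 in P-DF and P-IWP2 cells (edgeR adjusted p = 0.0656 and 0.0661), close in size to those of TTN. CCDC141 shares 1046 bases with TTN, 0.34% of its span.

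MYBPC3, which regulates the cycling of myosin heads, was also higher in passaged cells on Day 16 and near the NP-IWP2 level on Day 12. On Day 16 it was at 234 and 203 FPKM in the NP-IWP2 libraries, at 514 and 442 with P-DF and at 556 and 457 with P-IWP2. The passaged and NP-IWP2 libraries did not overlap. MYBPC3 rose 2.55-fold with P-DF (log2 fold change 1.35 ± 0.36, edgeR adjusted p = 0.0333) and 2.79-fold with P-IWP2 (1.48 ± 0.36, edgeR adjusted p = 0.0229). On Day 12 it was at 239 and 232 FPKM in the NP-IWP2 libraries, at 282 and 279 with P-DF and at 120 (replicate 5) and 261 with P-IWP2. The P-DF libraries were above NP-IWP2 cells by a log2 fold change of 0.34 ± 0.35, within its error (edgeR adjusted p = 0.602), and the P-IWP2 libraries lay on both sides. Without the replicate 5 library the Day 16 log2 fold changes were 1.35 and 1.48, with edgeR adjusted p of 6.15e-06 and 3e-06. As for TTN, leaving out any 1 library other than the 2 P-IWP2 libraries of Day 12 ended the call in P-DF cells (edgeR adjusted p 0.0526 to 0.208), and leaving out either NP-IWP2 or either P-IWP2 library of Day 16 ended that in P-IWP2 cells (0.0808 to 0.169).

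The myomesins went different ways. MYOM1, the main myomesin of these cells, was higher in every passaged library than in every NP-IWP2 library on Day 16, while MYOM2, the isoform of adult heart and fast muscle, was lower, and MYOM3 was barely detected. MYOM1 was at 157 and 105 FPKM in the NP-IWP2 libraries, at 306 and 252 with P-DF and at 249.3 and 293 with P-IWP2 on Day 16. The 2 NP-IWP2 libraries differed from each other, and the gap to the passaged libraries was still larger. The log2 fold changes were 1.31 ± 0.41 with P-DF (edgeR adjusted p = 0.0617) and 1.32 ± 0.41 with P-IWP2 (0.0563), neither past the threshold of 0.05. On Day 12, MYOM1 was at 103 and 87.5 FPKM in the NP-IWP2 libraries, at 183 and 188 with P-DF and at 78.4 (replicate 5) and 183 with P-IWP2. All but the replicate 5 library of the passaged cells were above NP-IWP2 cells. The Day 12 log2 fold changes were 1.05 ± 0.41 with P-DF (edgeR adjusted p = 0.185) and 0.48 ± 0.41 with P-IWP2 (0.761). Without that library the log2 fold changes were 1.30 and 1.32 on Day 16 and 1.04 and 1.03 on Day 12. The Day 16 values and the P-DF value of Day 12 were then called. The P-IWP2 value of Day 12 rests on replicate 6 alone.

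MYOM2 was at 1.75 and 1.41 FPKM in the NP-IWP2 libraries on Day 16, at 0.48 and 0.40 with P-DF and at 0.13 and 0.11 with P-IWP2. The 3 groups did not overlap. These values came from 235 and 160 reads in NP-IWP2, 54 and 51 in P-DF and 16 and 15 in P-IWP2 libraries, where the 31 reads of the P-IWP2 group allow 21 to 44 (exact Poisson interval of 95%, for counting error only). MYOM2 fell 11.02-fold in P-IWP2 cells (log2 fold change -3.46 ± 0.57, edgeR adjusted p = 0.00516), and in P-DF cells the log2 fold change was -1.62 ± 0.51 (edgeR adjusted p = 0.0593), not past the threshold. The call in P-IWP2 cells was lost, at an edgeR adjusted p of 0.0531, without P-IWP2 Day 16 replicate 6 and kept without each other library. On Day 12, MYOM2 was at 2.13 and 1.81 FPKM in the NP-IWP2 libraries, at 1.63 and 0.41 with P-DF and at 3.4 (replicate 5) and 2.50 with P-IWP2. Here the P-IWP2 libraries were the highest and the 2 P-DF libraries lay apart. The Day 12 log2 fold changes were -0.86 ± 0.48 with P-DF (edgeR adjusted p = 0.333) and 0.55 ± 0.47 with P-IWP2 (0.767).

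MYOM3, the third myomesin, had 6 to 28 reads per library and 0.04 to 0.19 FPKM. Its Day 16 log2 fold changes were -0.39 ± 0.53 with P-DF and -0.81 ± 0.55 with P-IWP2 (edgeR adjusted p = 0.657 and 0.328), neither past the threshold. On Day 16 it was at 0.13 and 0.19 FPKM in the NP-IWP2 libraries. With P-DF it was at 0.07 and 0.13, with overlap, and with P-IWP2 at 0.07 and 0.07, without overlap. The balance of the myomesins is seen in the ratio of MYOM1 to MYOM2 FPKM. This ratio was 89.7 and 74.5 in the NP-IWP2 libraries on Day 16, 637 and 629 with P-DF and 1918 and 2660 with P-IWP2. The 3 groups did not overlap, and they stood in the order NP-IWP2, P-DF and P-IWP2. On Day 12 it was 48.5 and 48.4 in the NP-IWP2 libraries, 113 and 458 with P-DF and 23.1 (replicate 5) and 73.3 with P-IWP2. The share of MYOM2 in the summed myomesin FPKM was 1.10 and 1.32% in NP-IWP2 cells and 0.0376 to 0.159% in passaged cells on Day 16.

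**Figure D2:**
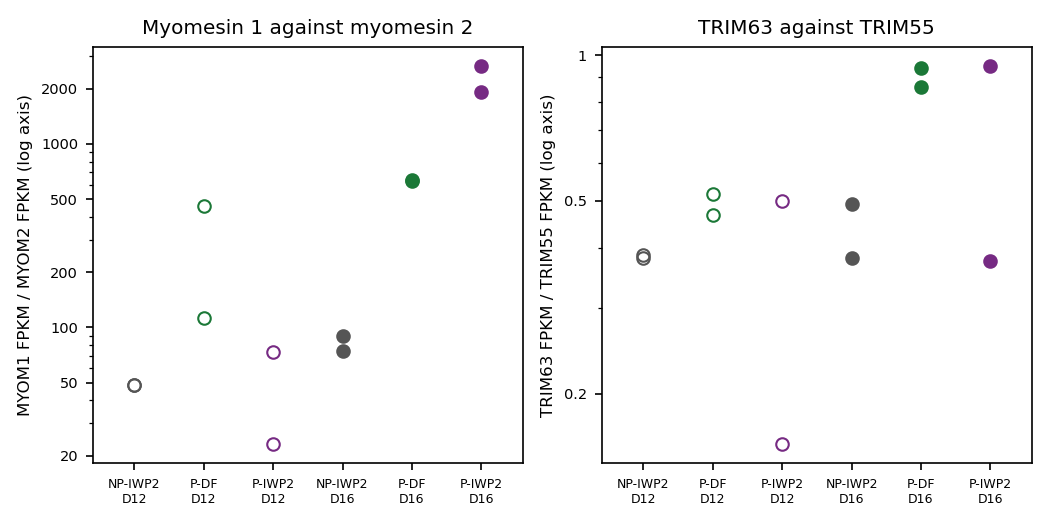
Ratio of MYOM1 to MYOM2 FPKM (left) and of TRIM63 to TRIM55 FPKM (right) in each library on log axes, by treatment and day, with open circles for Day 12 and filled circles for Day 16. The MYOM1 ratio is 74.5 and 89.7 in NP-IWP2 cells on Day 16 and 629 to 2660 in passaged cells, and the TRIM63 ratio of 1 P-IWP2 library of Day 16, 0.376, lies with NP-IWP2 cells.

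The folding factors of myosin were higher in passaged libraries on Day 16, without passing the threshold. SMYD1 was at 150 and 116 FPKM in the NP-IWP2 libraries, at 313 and 311 with P-DF and at 340 and 350 with P-IWP2 on Day 16. The libraries of each passaged group were close together and well above NP-IWP2 cells. The log2 fold changes were 1.45 ± 0.52 with P-DF (edgeR adjusted p = 0.0913) and 1.65 ± 0.53 with P-IWP2 (0.0601). On Day 12, SMYD1 was at 122 and 101 FPKM in the NP-IWP2 libraries, at 162 and 205 with P-DF and at 40.1 (replicate 5) and 151 with P-IWP2. The log2 fold changes of Day 12 were 0.80 ± 0.52 and -0.18 ± 0.51 (edgeR adjusted p = 0.399 and 0.959), and the latter was 0.52 without replicate 5. UNC45B was at 90.4 and 70.0 FPKM in the NP-IWP2 libraries, at 125 and 109 with P-DF and at 110 and 149 with P-IWP2 on Day 16. These groups did not overlap either, but the gap was narrower. Its log2 fold changes were 0.77 ± 0.44 and 0.97 ± 0.44 (edgeR adjusted p = 0.269 and 0.162). On Day 12 UNC45B was at 81.1 and 72.8 FPKM in the NP-IWP2 libraries, at 107 and 111 with P-DF and at 36.0 (replicate 5) and 101 with P-IWP2. Without the replicate 5 library, SMYD1 and UNC45B were called in both passaged groups on Day 16 and in P-DF cells on Day 12.

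The titin-associated ubiquitin ligases were higher in passaged libraries on Day 16, without being called, and a difference in size between their changes was not tested. TRIM63, which marks muscle proteins for degradation, was at 27.0 and 25.1 FPKM in the NP-IWP2 libraries, at 76.9 and 79.1 with P-DF and at 80.5 and 55.6 with P-IWP2 on Day 16. All 4 passaged libraries were well above NP-IWP2 cells, with P-IWP2 replicate 6 the lowest of them. The log2 fold changes were 1.81 ± 0.61 with P-DF (edgeR adjusted p = 0.0763) and 1.65 ± 0.61 with P-IWP2 (0.0923). The first of these was the largest P-DF value of the 9 genes. On Day 12, TRIM63 was at 22.9 and 20.1 FPKM in the NP-IWP2 libraries, at 34.4 and 32.2 with P-DF and at 6.11 (replicate 5) and 33.9 with P-IWP2. As a ratio of FPKM, this gap between the 2 P-IWP2 libraries of Day 12 was the widest of the 9 genes. TRIM55 was at 70.6 and 50.9 FPKM in the NP-IWP2 libraries, at 89.4 and 84.3 with P-DF and at 84.7 and 148 with P-IWP2 on Day 16, where replicate 6 was the highest of all libraries. Its log2 fold changes were 0.74 ± 0.37 and 1.22 ± 0.37 (edgeR adjusted p = 0.204 and 0.0513). On Day 12, TRIM55 was at 59.2 and 52.6 FPKM in the NP-IWP2 libraries, at 73.5 and 62.5 with P-DF and at 38.9 (replicate 5) and 68.0 with P-IWP2. The ratio of TRIM63 to TRIM55 FPKM on Day 16 was 0.382 and 0.493 in the NP-IWP2 libraries, 0.861 and 0.938 with P-DF and 0.950 and 0.376 with P-IWP2, so the P-DF libraries were higher and the 2 P-IWP2 libraries fell on both sides.

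Counted over the 9 genes, P-DF against NP-IWP2 cells gave 2 calls on Day 16, TTN and MYBPC3, both higher. Of the 19505 genes tested, 15.3% were called there, 5.39% higher and 9.86% lower. In P-IWP2 cells 3 of 9 were called on Day 16, TTN and MYBPC3 higher and MYOM2 lower, where 17.1% of all genes were called, 7.15% higher and 9.95% lower. The median log2 fold change of the 9 genes was 1.26 with P-DF and 1.32 with P-IWP2, where that of all genes was -0.02 and -0.03. On Day 16 the libraries of the groups compared did not overlap for 8 genes in P-DF cells, 7 of them higher (69% of all genes did not overlap, 18.8% higher), and for all 9 in P-IWP2 cells, 7 of them higher (66.9%, 16.2% higher). Both comparisons share the NP-IWP2 libraries, so they are not independent of each other. Without the P-IWP2 Day 12 replicate 5 library, which is in none of the groups compared here but enters the shared filter, scaling and spread, 8 of 9 genes were called in each, all but MYOM3 and with MYOM2 lower, where 32.4% and 34.8% of 20518 genes were called (14.4% and 16.3% higher, 18.1% and 18.5% lower).

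On Day 12, edgeR called 0 of 9 genes in both passaged groups, where 4.01% of all genes were called with P-DF and 1.66% with P-IWP2. At an unadjusted p under 0.05 there were 2 genes in P-DF cells, TTN and MYOM1, and 0 in P-IWP2 cells, while DESeq2 called 1 and 0. The 9 genes had a median log2 fold change of 0.59 with P-DF and -0.05 with P-IWP2, and the latter was 0.48 without replicate 5. The libraries of 8 genes did not overlap between P-DF and NP-IWP2 libraries, 7 of them higher, and 1, MYOM2, between P-IWP2 and NP-IWP2 libraries (65.8% of all genes, 24.6% higher, and 33.4%, 15.7% higher). Without the replicate 5 library, 5 genes were called in P-DF cells on Day 12, TTN, MYOM1, SMYD1, UNC45B and TRIM63, all higher, where 21.9% of all genes were called, 8.25% higher. In P-IWP2 cells MYOM1 and TRIM63 were then called higher, where 15% of all genes were called, 5.45% higher.

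**Figure D3:**
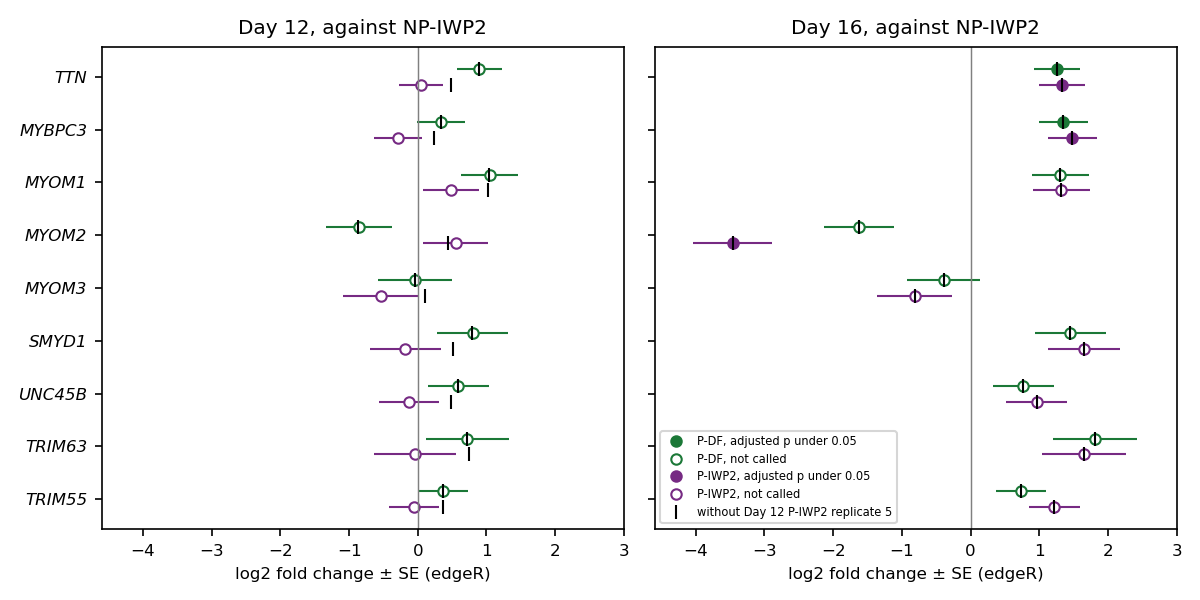
Log2 fold change (edgeR, ± SE) of each gene in P-DF and P-IWP2 cells against NP-IWP2 cells on Day 12 (left) and Day 16 (right), filled where the adjusted p was under 0.05, with a black tick for the value without the P-IWP2 Day 12 replicate 5 library. On Day 16 the filled points are TTN and MYBPC3 in both treatments and MYOM2 in P-IWP2 cells, at -3.46, and on Day 12 none is filled.

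Between Day 12 and Day 16, 7 of the 9 genes changed in P-IWP2 cells and 0 were called in the other treatments. In P-IWP2 cells TTN (log2 fold change 1.52 ± 0.33), MYBPC3 (1.77 ± 0.36), MYOM1 (1.42 ± 0.41), SMYD1 (2.20 ± 0.54), TRIM63 (2.09 ± 0.62) and TRIM55 (1.51 ± 0.37) rose, with edgeR adjusted p of 0.00918 to 0.0357. MYOM2 fell 18.5-fold (-4.21 ± 0.58, edgeR adjusted p = 0.00222). UNC45B was at 1.28 ± 0.45 (edgeR adjusted p = 0.0613). Of all genes 27% were called in this comparison, 12.9% higher and 14.1% lower, and the median log2 fold change was 1.52 for the 9 genes and -0.08 for all genes. The replicate 5 library is 1 of the 2 Day 12 libraries here. Without it the rises were smaller, between 0.87 (MYOM1) and 1.50 (SMYD1), the median of the 9 was 1.08, and these 7 genes were again called, where 23.7% of all genes were called, 12.4% higher and 11.3% lower. Without P-IWP2 Day 16 replicate 6, 2 genes were called, MYBPC3 and MYOM2. The call of TRIM63 was lost without any 1 library other than the 2 P-IWP2 libraries of Day 12 (edgeR adjusted p 0.0561 to 0.112), and that of MYOM1 without any 1 library other than those 2 and the NP-IWP2 libraries of Day 16 (0.0538 to 0.168).

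In P-DF cells the same comparison of days gave 0 calls by edgeR, 2 genes at an unadjusted p under 0.05 (MYBPC3 and TRIM63) and 1 call by DESeq2, where 13.6% of all genes were called. The log2 fold changes were 0.59 ± 0.33 for TTN, 1.02 ± 0.35 for MYBPC3, 0.84 ± 0.41 for MYOM1, 1.03 ± 0.52 for SMYD1 and 1.48 ± 0.61 for TRIM63. These 5 genes were the ones called higher without the replicate 5 library, where 29.2% of all genes were called, 15.1% higher. MYOM2 was at -0.96 ± 0.51 in P-DF cells. In NP-IWP2 cells 0 genes were called by edgeR and by DESeq2, and 0 had an unadjusted p under 0.05, where 1.98% of all genes were called. The largest difference there was that of MYOM1, at 0.58 ± 0.41, TTN was at 0.23 ± 0.33, and the median of the 9 genes was 0.24.

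The interaction of passaging and day, the difference between the change over time in passaged and in NP-IWP2 cells, was called for 1 gene in P-IWP2 cells. This was MYOM2, with a log2 difference of -4.01 ± 0.74 (edgeR adjusted p = 0.0331), where 1.84% of all genes were called and 1.06% were lower. MYBPC3 was at 1.76 ± 0.50 (edgeR adjusted p = 0.0975), SMYD1 at 1.83 ± 0.73 (0.2), TTN at 1.28 ± 0.46 (0.163) and TRIM63 at 1.70 ± 0.85 (0.289). Without the replicate 5 library, MYOM2 was at -3.90 and 5 genes were called, 4 of them higher, where 7.89% of all genes were called, 3.86% higher and 4.03% lower. The call of MYOM2 was lost, with an edgeR adjusted p of 0.0731 to 0.163, when any 1 NP-IWP2 library or any 1 Day 16 library was left out. In P-DF cells edgeR and DESeq2 called 0 of 9, and 0 had an unadjusted p under 0.05, where 0.482% of all genes were called. There the interaction was 1.01 ± 0.49 for MYBPC3 and 1.09 ± 0.85 for TRIM63, the 2 genes called without the replicate 5 library, where 7.62% of all genes were called, 3.57% higher.

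Whether IWP2 changed these genes in passaged cells was compared directly between P-IWP2 and P-DF cells. On both days 0 of 9 genes were called by edgeR and by DESeq2, where 0% of all genes were called by edgeR. At an unadjusted p under 0.05 there were 2 on Day 12 (TTN and MYOM2) and 1 on Day 16 (MYOM2). The MYOM2 libraries of Day 16 did not overlap, and its log2 difference was -1.84 ± 0.58 (edgeR adjusted p = 0.479). SMYD1 on Day 12 was at -0.98 ± 0.52 (edgeR adjusted p = 0.516). The median difference of the 9 genes was 0.07 on Day 16 and -0.62 on Day 12. That of Day 12 was -0.01 without replicate 5, with replicate 6 alone left in P-IWP2 cells.

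Several other cardiomyocyte genes rose in passaged cells too. The 11 cardiomyocyte genes (TNNT2, TNNC1, TNNI1, ACTN2, ACTC1, MYL7, MYH6, TPM1, NKX2-5, PLN and RYR2) summed to 4954 and 7852 FPKM in the NP-IWP2 libraries, to 10829 and 12553 with P-DF and to 12414 and 16519 with P-IWP2 on Day 16. Of the 11, 4 rose and 1, MYH6, fell in each passaged group (median log2 fold changes 0.87 and 0.96). The part of this difference, and of the fibroblast and hepatic RNA of NP-IWP2 cells, in the changes of the 9 genes was not tested. Set against the mean log2(FPKM + 1) of these 11 genes in the same library, MYBPC3 was still higher on Day 16, by 0.49 with P-DF and 0.48 with P-IWP2, on this log2 scale with a pooled SD of 0.03 and 0.19. MYOM1 was higher by 0.47 and 0.34, SMYD1 by 0.60 and 0.66 and TRIM63 by 0.91 and 0.61, without overlap between groups. TTN was higher by 0.37 in P-DF cells without overlap and by 0.31 in P-IWP2 cells with overlap. UNC45B (-0.09 and -0.05) and TRIM55 (-0.11 and 0.17) differed little on this scale, and only for UNC45B in P-DF cells did the libraries not overlap. The relative level of MYOM2 lay below that in NP-IWP2 cells, with differences of -1.48 and -1.92, or -2.27 and -3.65 on log2(FPKM + 0.1). MYOM3 was at -0.71 and -0.84 without overlap. At its 0.04 to 0.19 FPKM, log2(FPKM + 1) is near 0, so its difference largely follows the mean of the 11 genes. Part of the MYOM2 difference also follows that mean.

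The 11 genes include MYH6, which was lower in passaged cells, and TNNT2, cardiac troponin T, was the other reference. On the log2(FPKM + 1) scale TNNT2 rose less on Day 16 than the mean of the 11 genes, which shifts every difference against it upward. Against TNNT2 alone the Day 16 differences of the genes with a positive difference were larger: TTN was higher by 0.83 and 0.84, MYBPC3 by 0.95 and 1.02 and SMYD1 by 1.07 and 1.20 in P-DF and P-IWP2 cells, without overlap. UNC45B then changed from a negative to a positive difference, 0.38 and 0.49, and TRIM55 was at 0.36 and 0.70, all with overlapping libraries. The differences of MYOM2 were smaller in size against TNNT2, at -1.01 and -1.39 on log2(FPKM + 1), without overlap. At the low FPKM of MYOM2 the added 1 shrinks such differences, and a pseudocount of 0.1 was not used with TNNT2. In the P-IWP2 Day 12 replicate 5 library the mean of the 11 genes was 7.15, against 8.34 in replicate 6. On the scale relative to the 11 genes, the Day 12 differences of P-IWP2 from NP-IWP2 were 0.48 for MYOM1, -0.26 for MYBPC3 and -0.19 for UNC45B without overlap. With overlap they were 0.13 for TTN, 0.03 for TRIM55, -0.36 for SMYD1, -0.36 for TRIM63, 0.55 for MYOM2 and 0.10 for MYOM3. With P-DF on Day 12 they were 0.55 for MYOM1, 0.37 for TTN, 0.30 for SMYD1, 0.20 for TRIM63 and 0.09 for UNC45B. Negative differences were those of MYBPC3 (-0.16), TRIM55 (-0.13), MYOM3 (-0.42) and MYOM2 (-1.03). None of these P-DF values had overlap. The difference of MYBPC3 on Day 16 was positive, and against TNNT2 alone its Day 12 libraries overlapped in both comparisons.

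**Figure D4:**
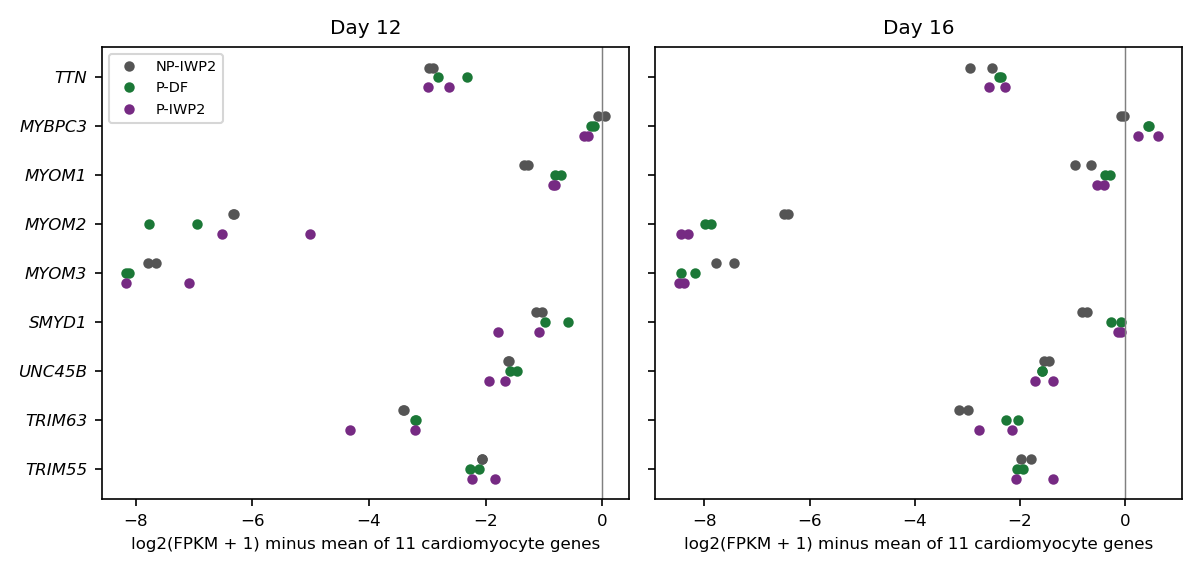
Level of each gene relative to cardiomyocyte genes, as log2(FPKM + 1) minus the mean log2(FPKM + 1) of 11 cardiomyocyte genes in the same library, on Day 12 (left) and Day 16 (right), 1 point per library. On Day 16 the passaged libraries lie to the right of NP-IWP2 for MYBPC3, MYOM1, SMYD1 and TRIM63, by 0.34 to 0.91 between means. UNC45B and TRIM55 are level, MYOM2 lies far to the left and MYOM3 less far to the left.

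Related genes were taken from 5 lists, and those that passed the filter on low counts are counted. Of all genes, 5.39% were called higher and 9.86% lower in P-DF cells on Day 16, and 7.15% and 9.95% in P-IWP2 cells. Of 18 genes of the thick filament and M-band, 6 rose and 1 fell in P-DF cells on Day 16, and 5 rose and 1 fell in P-IWP2 cells, with a median log2 fold change of 1.12 and 1.29. MYL2, the ventricular regulatory light chain, was at 21.6 ± 24.1 FPKM (SD, n = 2) in NP-IWP2, 1511 ± 213 with P-DF and 1134 ± 18.2 with P-IWP2, and rose by 6.31 and 5.95 (log2). LRRC39, an M-band protein, rose by 2.00 and 1.63. MYH6, the alpha myosin heavy chain of atrial muscle, fell from 427 ± 13.5 to 89.9 ± 26.8 and 119 ± 38.9 FPKM, with log2 fold changes of -2.02 and -1.56. Of 16 genes of titin ends, springs and splicing, 5 rose with P-DF, 7 rose with P-IWP2 and none fell (medians 1.28 and 1.50). Among them were NRAP, an anchor of actin filaments, whose mean was at most 1.06 FPKM (3.33 and 3.21), CRYAB, a small heat shock protein that binds titin (2.03 and 2.38), and the Z-disc protein MYPN (1.94 and 2.01). RBM20, the splicing factor of titin, is outside the naming rule and was named after its values were seen. It rose by 1.45 and 1.41.

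Of 14 genes of myosin folding and chaperones, 6 rose and 1 fell in P-DF cells and 5 rose and 1 fell in P-IWP2 cells (medians 0.51 and 0.38). The small heat shock proteins HSPB6 (2.81 and 2.87), HSPB3 (1.55 and 1.75) and HSPB1 (1.40 and 1.77) were the 3 with the largest change among those called in P-DF cells, and UNC45A, the general cell form of UNC45B, was the gene that fell, with log2 fold changes of -0.73 and -0.54. UNC45A was named after its values were seen. Of 13 genes of ubiquitin ligases and turnover, 4 rose with P-DF and 3 with P-IWP2 (medians 0.68 and 0.54). KLHL40 (3.73 and 2.93) and KBTBD13 (2.14 and 1.85), muscle Kelch proteins at means of 0.095 to 1.51 FPKM, rose in both, and KLHL31 rose by 1.66 in P-DF cells and was at 1.06 in P-IWP2 cells (edgeR adjusted p = 0.0891). Of 12 cardiac transcription factors, 1 rose in P-DF cells, and 1 rose and 1 fell in P-IWP2 cells. Their medians were near 0, at 0.002 and 0.0026. MYOCD, a coactivator of the serum response factor, rose by 0.65 and 0.77, and TBX5, named after its values were seen, had a log2 fold change of -1.52 in P-IWP2 cells. Of all genes 15.3% were called with P-DF and 17.1% with P-IWP2 in these Day 16 comparisons. In P-DF cells the calls of the 5 lists without the replicate 5 library, in the order given, were 12 higher and 1 lower, 13 and 0, 8 and 1, 9 and 0 and 3 and 0, where 32.4% of all genes were called. For P-IWP2 they were 15 and 1, 13 and 0, 7 and 1, 7 and 0 and 3 and 3, where 34.8% were called. On Day 12 edgeR called none of the genes of the 5 lists in either comparison, with 1 to 4 genes of a list at an unadjusted p under 0.05 and 0 to 3 called by DESeq2. The Day 12 calls without the replicate 5 library were, with P-DF, 9 higher and 0 lower, 9 and 0, 2 and 1, 5 and 0 and 4 and 3, where 21.9% of all genes were called. With P-IWP2 replicate 6 alone was left on Day 12, so such calls are not given.

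**Figure D5:**
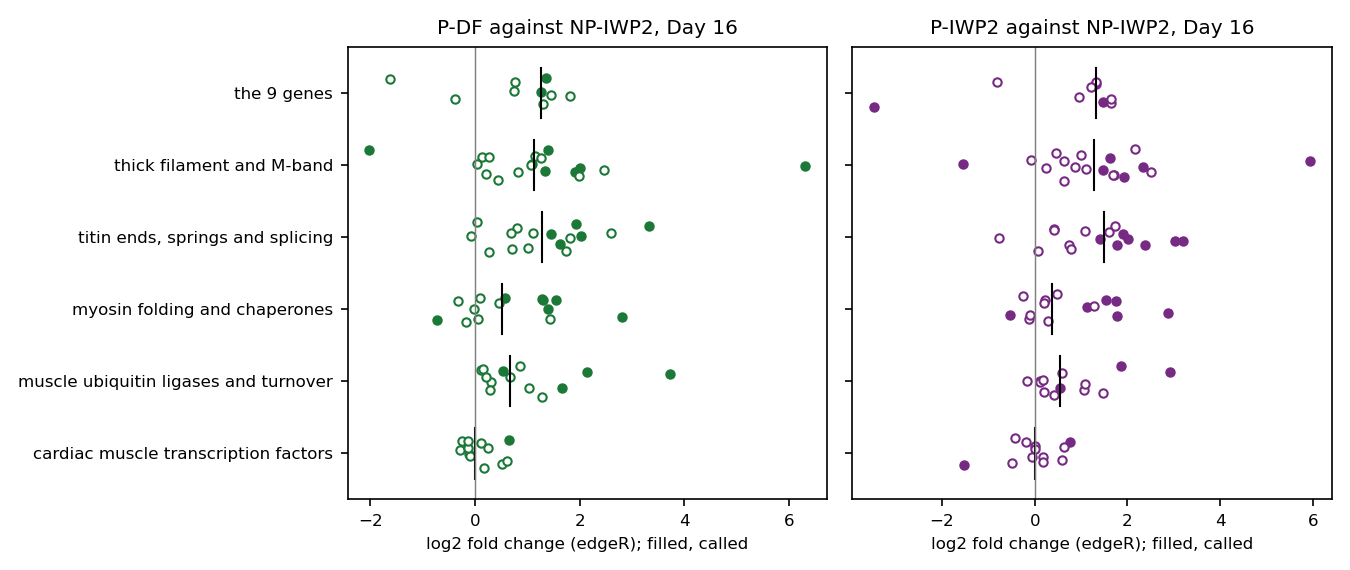
Log2 fold change (edgeR) on Day 16 of the 9 genes and of the genes of 5 related lists in P-DF (left) and P-IWP2 cells (right) against NP-IWP2 cells, 1 point per gene, filled where called, with a line at the median of each list. The medians of the 9 genes (1.26 and 1.32), the thick filament list (1.12 and 1.29) and the titin list (1.28 and 1.50) lie to the right of 0, and those of the transcription factors lie near 0.

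Over the 12 libraries, the log2 CPM of TTN, MYBPC3, MYOM1, SMYD1, UNC45B, TRIM63 and TRIM55 varied together, with Pearson correlations of 0.867 to 0.982 in their 21 pairs. MYOM2 ran against these 7 genes, with correlations of -0.876 to -0.737. Without the replicate 5 library the ranges were 0.813 to 0.974 and -0.869 to -0.740. These correlations describe 12 libraries in 6 groups that share treatments and days, and they have no test. Among the genes closest to TTN were ACER3 (0.985), C1orf105 (0.979), LIMD1 (0.978) and COG5 (0.978). Closest to MYBPC3 were APOBEC2 (0.989), OSBPL9 (0.989) and AFG3L2 (0.988), and to MYOM1 RNF115 (0.995), LRRFIP1 (0.988) and ARHGAP1 (0.988). SMYD1 was closest to MT-ND5 (0.994) and OSBPL9 (0.992), and UNC45B to NEXN (0.991), PFKP (0.991) and SLIRP (0.989). TRIM63 was closest to ENO3 (0.992), LDB3 (0.991) and MT-RNR2 (0.989), and TRIM55 to PSMB3 (0.986), PRDX3 (0.985) and SLC16A1 (0.983). MYOM2 was closest to GCSAM (0.955), ETV1 (0.951) and GRAMD1B (0.950). For MYOM3 the closest were CNOT2 (0.870) and PLEKHH3 (0.861), and these dropped to 0.777 and 0.593 without replicate 5.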

How the data were processed

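RNA-seq libraries were made from 12 samples of H1 cells, 2 for each of 3 treatments on Day 12 and Day 16. Groups were taken from the sample labels. The authors trimmed the reads with cutadapt 1.9.1, aligned them to hg38 with HISAT2 2.0.1 and counted them per gene with HTSeq 0.6.1, and DESeq2 is also named in their processing notes. The deposited table holds read counts without normalization and the FPKM that the authors made from them: each FPKM equals the count divided by exon length and library total, within 0.005, in 100% of values. Of 61757 gene IDs shared with GENCODE 44, 98.2% had the same position, including the 9 genes described. The strand setting of the counting is not given in the sources used here. Of 61806 genes, 20417 have no symbol.

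Counts of all 12 libraries (14885589 to 19176239 per library) entered 1 model of 6 groups in edgeR 4.0.16, with TMM normalization, the filter filterByExpr, which left 19505 genes, and its quasi-likelihood test. The adjusted p is that of Benjamini-Hochberg over all genes tested, with a threshold of 0.05. With 2 libraries a group, 6 residual degrees of freedom were shared by all comparisons. FPKM served for levels, and relative levels used log2(FPKM + 1). Correlations used log2 CPM with a prior count of 2. Alternatives were DESeq2 1.42.0, RLE size factors, total counts, no filter, models of only the groups compared, limma 3.58.1 on log2(FPKM + 1) and log2(FPKM + 0.1) for genes with a mean FPKM of at least 1, a replicate block, and each library left out in turn. The scripts were tested on simulated counts with known changes.

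The 9 genes, the related lists, the markers and the tests were chosen with earlier results of these data known. All 9 genes are named. From each list up to 3 genes are named, those with the largest absolute log2 fold change among the genes called in P-DF cells on Day 16, and for each gene the 3 (for TTN the 5) with the highest correlation, of which some are not reported here.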

Additional observations from a re-analysis of the deposited data

Results flagged for a closer look

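The change of MYOM2 between Day 12 and Day 16 was not the same with P-IWP2 as with NP-IWP2, by a test of that difference itself. The interaction was -4.01 on the log2 scale (edgeR's quasi-likelihood test, adjusted p = 0.0331). MYOM2 was at 3.4 and 2.5 FPKM on Day 12 and 0.13 and 0.11 FPKM on Day 16 in P-IWP2 cells, and at 2.13 and 1.81 and then 1.75 and 1.41 FPKM in NP-IWP2 cells. The Day 16 values of P-IWP2 cells rest on 16 and 15 reads. The call was lost when any 1 NP-IWP2 library or any 1 Day 16 library was left out. Of the 9 genes, limma on log2(FPKM + 1) called 0 in this interaction. The P-IWP2 Day 12 replicate 5 library stood apart from its replicate over all genes and is 1 of the 2 P-IWP2 libraries of Day 12. Without it the interaction was -3.90, with 1 library left in that group.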

How the results depend on the processing

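Of the 11 counts of genes called, those given in the report moved as follows. With DESeq2, 1 gene was called in P-DF against NP-IWP2 cells on Day 12 and 5 on Day 16, 6 in P-IWP2 cells on Day 16, 1 between days in P-DF cells and 3 in the P-IWP2 interaction. Without the filter on low counts, 6 and 8 genes were called with P-DF (Day 12, then Day 16), 8 with P-IWP2 on Day 16, 6 and 1 for P-IWP2 against P-DF (Day 12, then Day 16), 1 and 7 between days in NP-IWP2 and P-DF cells, and 2 and 8 in the interactions of P-DF and P-IWP2 cells. With only the groups compared in the model, 7 and 8 were called with P-DF (Day 12, then Day 16), 8 with P-IWP2 on Day 16, 1 for P-IWP2 against P-DF on Day 16, 1, 7 and 0 between days in NP-IWP2, P-DF and P-IWP2 cells, and 2 in the P-DF interaction. limma on log2(FPKM + 1) called 0 in the P-IWP2 interaction. The cause was not tested.

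With 1 library left out at a time, the genes called ranged from 0 to 5 in P-DF and 0 to 5 in P-IWP2 cells on Day 12, 0 to 8 in both on Day 16, 0 to 8 for P-IWP2 against P-DF on Day 12, 0 to 5 between days in P-DF and 2 to 8 in P-IWP2 cells, and 0 to 2 and 0 to 8 in the interactions of P-DF and P-IWP2 cells. Of the 99 log2 fold changes (9 genes in 11 comparisons), 27 turned sign under at least 1 alternative, and 0 of these 27 were called by edgeR with all libraries. In P-IWP2 against NP-IWP2 cells on Day 12 this held for 8 of 9 genes, all but MYOM2. There, with 1 library left out, TTN ranged from -0.60 to 0.48 (limma gave -0.021 and -0.023 with a pseudocount of 1 and 0.1), MYBPC3 from -1.12 to 0.24, MYOM1 from -0.43 to 1.03, MYOM3 from -1.69 to 0.10, SMYD1 from -1.62 to 0.52, UNC45B from -1.24 to 0.49, TRIM63 from -1.96 to 0.75 and TRIM55 from -0.67 to 0.37, each with its highest value without P-IWP2 Day 12 replicate 5 and its lowest without replicate 6. With P-DF on Day 12, MYOM3 ranged from -0.32 to 0.19, and between days in P-DF cells MYOM2 ranged from -1.67 to 0.37 (without P-DF Day 12 replicate 3).

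Replicate numbers are shared by the 2 days. Deviations from group means correlated by 0.20 for NP-IWP2, 0.0009 for P-DF and -0.05 for P-IWP2. With 2 libraries a group, these values cannot settle whether equal numbers are pairs, and the main model did not pair them. With a replicate block, 1 gene was called between days in P-DF cells and 2 in the P-IWP2 interaction. Scaling by total counts moved the median of all genes by -0.25 for P-DF and -0.31 for P-IWP2 on Day 16 and gave 558 of 3428 and 733 of 4155 calls higher, against 1051 of 2975 and 1395 of 3336. At this depth, 3 counts are 0.156 to 0.202 CPM, which limits MYOM3 and, in P-IWP2 cells on Day 16, MYOM2.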

Other observations

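The ratio of MYBPC3 to TTN FPKM, both per exon length, was compared in each library. The NP-IWP2 libraries of Day 16 had ratios of 7.53 and 5.90, the P-DF libraries 7.35 and 6.96 and the P-IWP2 libraries 7.60 and 7.25. The Day 12 ratios were 7.36 and 8.38 for NP-IWP2, 6.25 and 4.60 for P-DF and 5.43 (replicate 5) and 6.60 for P-IWP2, so all 4 passaged libraries of Day 12 lay below both NP-IWP2 libraries. The Day 16 groups overlapped or lay within the range of NP-IWP2 cells, except that P-IWP2 replicate 5 was just above it.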
